A study of Mus musculus with 9 samples.

Results

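Of the 4555 HDAC3 regions listed on chromosomes 1 to 19 and X in 3T3-L1 cells given a control siRNA, 2000 overlapped by at least 1 bp a region of acetylated histone H3 (AcH3) or acetylated histone H2B (AcH2B) from the same treatment. These 2000 regions (43.9%, Wilson 95% interval 42.5 to 45.4%) are the HDAC3 regions on acetylated chromatin described here, and the other 2555 are called HDAC3 regions off acetylated chromatin. They were chosen from the measured region lists, so their overlap with acetylated histones in the control is the rule and not a result. 3T3-L1 is an established mouse line of preadipocytes, fibroblast-like cells that can be induced to become fat cells. Preadipocytes received a control siRNA (siControl) or an siRNA against Me1 (siME1) or Me2 (siME2). Me1 encodes a cytosolic malic enzyme that produces NADPH, and Me2 a mitochondrial malic enzyme. The cells were induced to differentiate 2 days later and fixed with 1% formaldehyde after 7 further days. Chromatin sheared to 200 to 1000 bp was immunoprecipitated with an antibody to HDAC3, AcH3 or AcH2B, which gave 9 libraries, 1 for each of the 3 antibodies under each of the 3 siRNAs. The series asks how NADPH bears on histone acetylation through HDAC3. With 1 library per condition no difference between siRNAs has a replicate check, no p-value is given, and every interval covers counting error only.

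HDAC3 is a class I histone deacetylase, an enzyme that removes acetyl groups from lysines of histone tails. It works within complexes built on NCoR corepressors, which nuclear receptors and repressors such as BCL6 and REV-ERBα (Nr1d1) bring to DNA. Acetylated H3 marks the start sites of active genes and, with acetylated H2B, active enhancers. A deacetylase found on acetylated chromatin is a known feature of active genes, where acetyltransferases and deacetylases act on the same nucleosomes.

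Promoters whose HDAC3 region was listed again in both knockdowns often held the E-box CACGTG, and these sequences are shown for that reason. The 250 bases before the start site of 4 such genes of the lysosome and its surroundings, and of Dusp1, are shown 5′ to 3′ on the gene's strand, from RefSeq on GRCm38.p6. Capitals mark each E-box, and in Dusp1 also the cAMP response element TGACGTCA. The control HDAC3 region at Dusp1, chr17:26508656-26509101, lies upstream of both marked motifs and covers neither. The windows are chr8:13158911-13159160 for Lamp1 (plus strand), chr8:3500269-3500518 for Mcoln1 (plus), chr17:25133141-25133390 for Clcn7 (plus), chr17:24163734-24163983 for Amdhd2 (minus) and chr17:26508473-26508722 for Dusp1 (minus). Amdhd2 encodes an amino-sugar deacetylase, and its start lies beside Atp6v0c, which encodes a subunit of the lysosomal proton pump.
Lamp1: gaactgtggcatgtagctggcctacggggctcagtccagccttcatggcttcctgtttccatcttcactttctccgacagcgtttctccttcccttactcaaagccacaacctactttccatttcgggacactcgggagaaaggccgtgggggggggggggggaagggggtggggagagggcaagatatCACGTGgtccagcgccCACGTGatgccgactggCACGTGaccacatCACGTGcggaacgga
Mcoln1: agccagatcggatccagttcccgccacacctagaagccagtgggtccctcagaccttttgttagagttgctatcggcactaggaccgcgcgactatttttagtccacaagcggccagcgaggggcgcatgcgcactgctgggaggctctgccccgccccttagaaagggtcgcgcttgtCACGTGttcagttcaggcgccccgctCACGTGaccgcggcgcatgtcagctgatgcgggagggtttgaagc
Clcn7: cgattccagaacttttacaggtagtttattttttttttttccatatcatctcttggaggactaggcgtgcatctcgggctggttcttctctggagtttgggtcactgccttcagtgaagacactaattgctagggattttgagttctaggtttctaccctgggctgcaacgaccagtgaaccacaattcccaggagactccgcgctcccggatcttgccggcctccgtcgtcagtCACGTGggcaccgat
Amdhd2: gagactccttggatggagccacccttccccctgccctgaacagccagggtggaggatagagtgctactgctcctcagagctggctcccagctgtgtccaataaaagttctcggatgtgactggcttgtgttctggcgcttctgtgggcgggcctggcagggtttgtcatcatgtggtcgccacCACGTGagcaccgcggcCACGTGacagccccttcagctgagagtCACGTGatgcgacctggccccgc
Dusp1: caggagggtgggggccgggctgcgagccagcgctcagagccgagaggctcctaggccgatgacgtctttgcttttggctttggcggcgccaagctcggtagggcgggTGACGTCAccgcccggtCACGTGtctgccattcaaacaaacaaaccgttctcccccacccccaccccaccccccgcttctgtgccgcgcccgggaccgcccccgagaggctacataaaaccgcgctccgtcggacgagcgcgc
Lamp1, for a lysosomal membrane glycoprotein, held 4 E-boxes within 61 bases of its start. Amdhd2 held 3, Mcoln1, for a lysosomal cation channel, held 2, and Clcn7, for a lysosomal chloride transporter, and Dusp1, for a phosphatase of MAP kinases, held 1 each.

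In the control library, HDAC3 regions on acetylated chromatin were weak. Their median height was 7 overlapping fragments, their median fold over local background 3.25 (quartiles 2.80 to 3.74) and their median −log10 p 3.73. Apart from 7 regions in segments of high background, none was higher than 18 fragments. Only 172 of the 2000 (8.6%) had a false discovery rate (q) of 0.05 or less, while every AcH3 and AcH2B region did. The HDAC3 control list reached down to a −log10 p of 2.30, and the limits used to make it are not stated. Off acetylated chromatin the medians were a fold of 3.04 and a −log10 p of 3.41, so the medians of the sets were close. The upper ends differed more: outside segments of high background, 147 of 1993 regions on acetylated chromatin and 79 of 2413 off it had a −log10 p of 6 or more. Regions on acetylated chromatin were wider, with a median of 263 bp against 206 bp. Segments whose background exceeded 5 times that of the genome held 7 of the 2000 regions and 142 of the other 2555. Of the 7, 5 lay at Mdm2, for a ubiquitin ligase of p53, at chr10:117708843-117718375, with 42.6 to 48.6 times the genome background and HDAC3 folds of only 1.36 to 2.09.

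At the edge of the rule, 74 of the 2000 regions shared fewer than 50 bp with an acetylated region, whereas 1453 lay wholly inside one. Just outside it, 145 HDAC3 regions ended within 200 bp of acetylated chromatin and 384 within 1 kb.

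By mark, 866 regions (43.3%) lay on AcH3 only, 333 (16.65%) on AcH2B only and 801 (40.05%) on both. The classes sat at different places relative to genes. Within 1 kb of an end of a protein-coding gene lay 64.8% of the AcH3-only class, 34.2% of the class with both marks and 5.4% of the AcH2B-only class. The AcH2B-only regions were instead between genes (57.4%) or inside gene bodies (37.2%). All 3 classes together had 853 regions at a gene end (42.65%), 665 in a gene body (33.25%) and 482 between genes (24.1%). With a window of 10 kb in place of 1 kb, 69.75% were near a gene end. Over all HDAC3 regions 21.2% were within 1 kb of one, and off acetylated chromatin 4.34% were. The acetylated lists themselves differ in the same way, with 53.0% of all AcH3 regions and 13.3% of all AcH2B regions at a gene end, so the classes differ in position as the marks that chose them do.

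**Figure D1:**
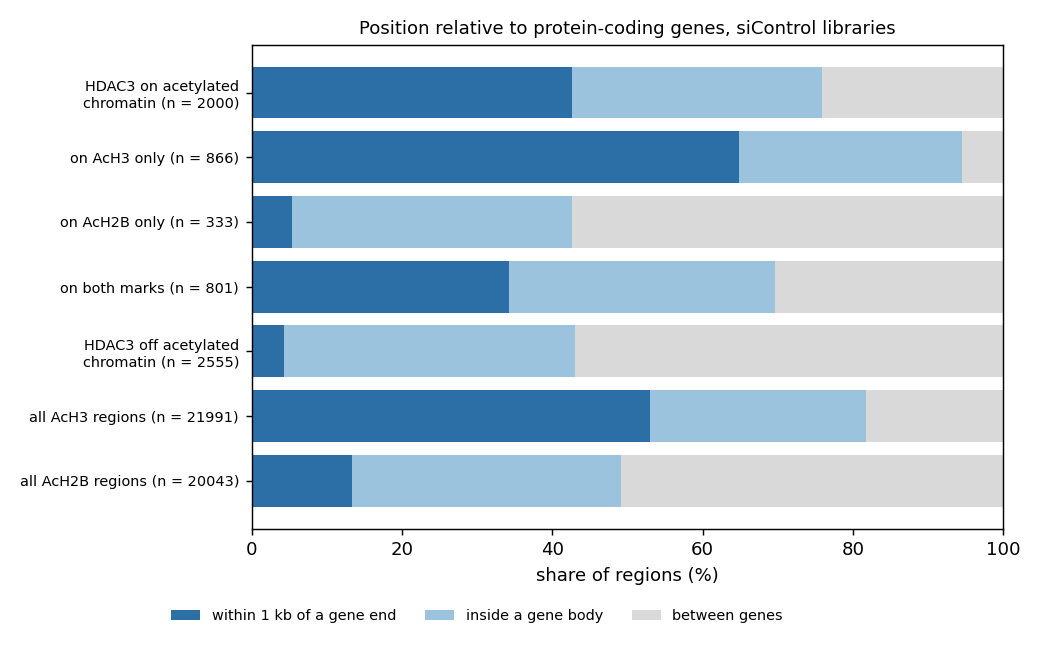
Share of regions (x axis, %) within 1 kb of a protein-coding gene's end (dark blue), inside a gene body (light blue) or between genes (grey) for 7 sets of siControl regions (y axis, with their number). HDAC3 regions on AcH3 only are mostly at gene ends (64.8%), those on AcH2B only and those off acetylated chromatin mostly between genes (57.4% and 56.9%).

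Around start sites the HDAC3 summits lay closer to the start than the AcH3 summits. Of the 802 HDAC3 summits within 1 kb of a RefSeq start site, 19.2% lay within 100 bp of it, against 6.34% of the 10563 AcH3 summits. The median HDAC3 summit was 111 bp downstream of the start and the median AcH3 summit 225 bp downstream. In the 200 bp just upstream of a start lay 6.98% of the HDAC3 summits on acetylated chromatin but 2.51% of all AcH3 summits, which dipped there between peaks on either side. The median distance from an HDAC3 summit to the nearest AcH3 summit was 152 bp and to the nearest AcH2B summit 162 bp. Within 150 bp of such a summit lay 49.5% of HDAC3 summits on AcH3 and 47.4% of those on AcH2B. These distances used every summit of an acetylated region, while the start-site values used its highest alone. To the highest summit the median distances were 323 bp for AcH3 and 246 bp for AcH2B. Of the HDAC3 regions on AcH3, 72.9% had several AcH3 summits to be near to.

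**Figure D2:**
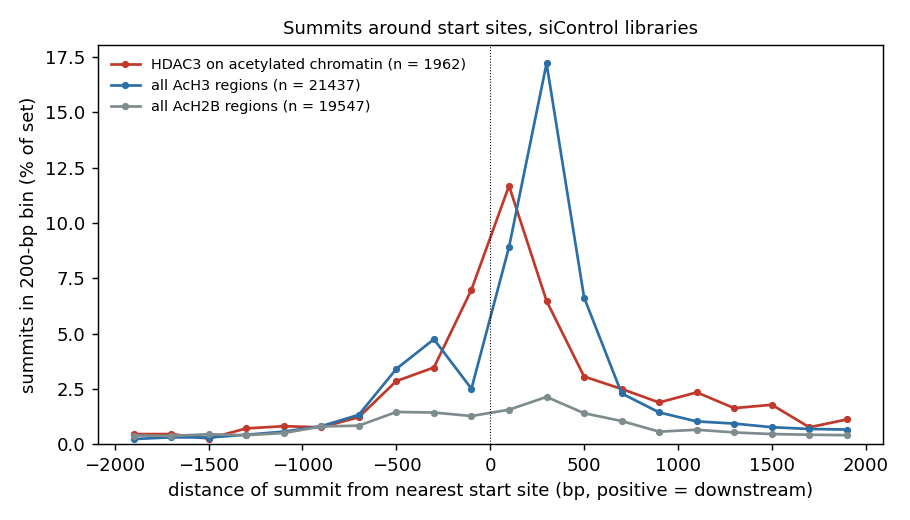
Share of each set's summits (y axis, %) by distance from the nearest RefSeq start site in 200-bp bins (x axis, bp, positive downstream) for HDAC3 regions on acetylated chromatin (red), all AcH3 regions (blue) and all AcH2B regions (grey), siControl. The HDAC3 curve has its top in the first bin downstream (11.7%), while the AcH3 curve is low just upstream of the start (2.51%) and highest further downstream.

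The acetylated regions that held HDAC3 were the strong and wide ones of their lists. The 1533 AcH3 regions with HDAC3 (6.97% of 21991) had a median fold of 9.23 and a median width of 1503 bp, against 5.46 and 651 bp for those without. The 1108 AcH2B regions with HDAC3 (5.53% of 20043) had a median fold of 4.87 and a width of 749 bp, against 4.14 and 449 bp. Sorted into 5 bins of near-equal size by AcH3 fold, the share with HDAC3 went from 2.43% in the lowest bin to 14.7% in the highest. For AcH2B it went from 2.90% to 11.8%. The part of width in these shares was not tested.

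HDAC3 was also unevenly spread over chromosomes. The share of AcH3 regions with HDAC3 was lowest on X (1.17%), 4 (2.20%) and 7 (2.54%) and highest on 16 (12.5%), 8 (10.9%), 19 (10.9%) and 15 (10.8%). The median local background of AcH3 regions moved with it, from 1.76 fragments on X to 3.11 on chromosome 8. Across the 20 chromosomes Spearman's rho was 0.88 and Pearson's r 0.84 between that background and the share with HDAC3. The points share their libraries, and the part of background in the HDAC3 shares was not tested.

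In the knockdown libraries most HDAC3 regions were not listed again, but those on acetylated chromatin recurred more often than the rest. Found again, with 1 bp or more of overlap, in the HDAC3 siME1 list were 257 of the 2000 (12.85%, 11.5 to 14.4%), where 7.31% of all 4555 control regions were and 76 of 2555 (2.97%, 2.38 to 3.71%) off acetylated chromatin. In the HDAC3 siME2 list 221 (11.05%, 9.75 to 12.5%) were found again, against 5.80% of all control regions and 43 (1.68%, 1.25 to 2.26%) off acetylated chromatin. Either list held 398 (19.9%, where the share over all control regions was 11.0%) and both lists 80 (4.0%, where it was 2.15%). The knockdown lists took no part in choosing the regions. The siME1 and siME2 lists hold 5178 and 1582 HDAC3 regions, and a shorter list can return fewer regions, so the 2 shares are not compared with each other. They share the control list. The wider regions on acetylated chromatin have more bases to overlap, and the part of width was not tested. Where 50% of the control region had to be overlapped, 6.95% and 6.6% of the 2000 were found again in siME1 and siME2, against 1.92% and 0.978% off acetylated chromatin. Against only the 1582 highest-scoring siME1 regions, the number in the siME2 list, 6.65% were found again, against 1.37% off acetylated chromatin.

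**Figure D3:**
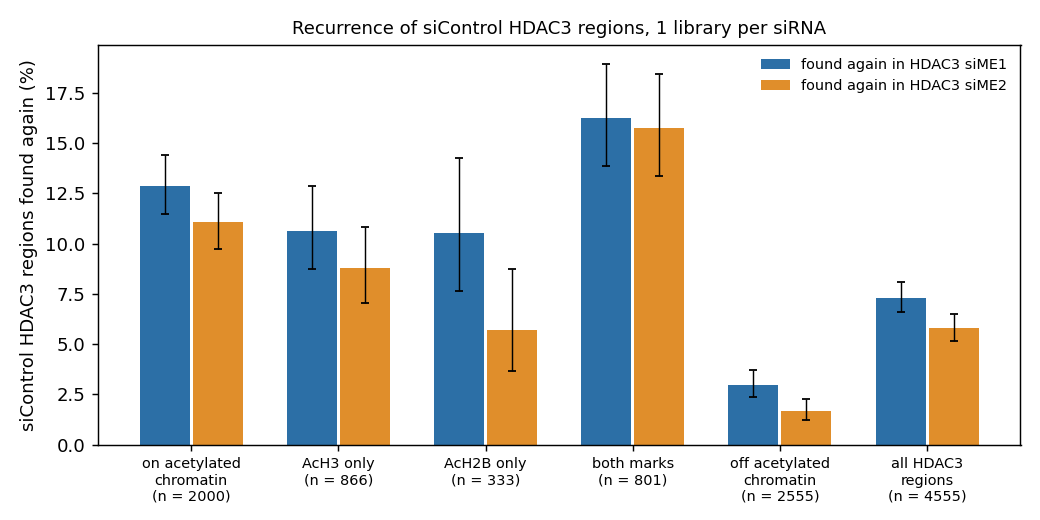
Share of siControl HDAC3 regions found again (y axis, %) in the HDAC3 siME1 list (blue) and the HDAC3 siME2 list (orange) by mark class, off acetylated chromatin and over all regions (x axis, with their number). Bars are shares of regions in 1 library per siRNA and lines are Wilson 95% intervals. Regions with both marks are highest (16.2% and 15.7%) and regions off acetylated chromatin lowest (2.97% and 1.68%).

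The share found again was higher on acetylated chromatin in each of 5 ranges of the control region's −log10 p. Among regions with −log10 p from 2 to 3, outside segments of high background, 9.44% of 466 on acetylated chromatin and 1.89% of 795 off it were found again in siME1, and 6.65% and 0.503% in siME2. At a −log10 p of 6 or more the shares were 33.3% of 147 and 15 of 79 in siME1, and 32.7% and 14 of 79 in siME2, and the intervals of the 2 sets overlap. Of the 172 regions with q of 0.05 or less, 57 (33.1%) were found again in siME1, 51 (29.7%) in siME2 and 27 in both. The 159 regions of such q off acetylated chromatin were not counted in this way. By class, regions with both marks were found again most often, at 16.2% in siME1 and 15.7% in siME2. AcH3-only regions returned at 10.6% and 8.78%, and AcH2B-only regions at 10.5% and 5.71%. By position, at gene ends 12.4% and 12.3% were found again, in gene bodies 12.5% and 8.87%, and between genes 14.1% and 11.8%.

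Counted within each treatment, the share of HDAC3 regions on that treatment's own AcH3 or AcH2B regions was 43.9% under siControl, 27.2% (26.1 to 28.5%) of 5178 regions under siME1 and 44.1% (41.6 to 46.5%) of 1582 under siME2. The lower siME1 share came with longer acetylated lists, 34794 AcH3 and 54645 AcH2B regions against 21991 and 20043 in the control. It also came with the longest and weakest HDAC3 list. The median −log10 p was 3.25 under siME1, 3.69 under siControl and 3.50 under siME2. Within the q limit used above were 2.22%, 7.27% and 3.73% of the HDAC3 regions, in the same order. The part of list length and strength in these shares was not tested.

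The strongest regions found in all 3 HDAC3 lists included Sppl3, Dusp1, Lamp1, Rara, Angptl4, Hes1 and Socs2. The region upstream of Sppl3, for an intramembrane protease of the Golgi, at chr5:115010954-115011204, had HDAC3 folds of 6.47, 8.41 and 7.24 under siControl, siME1 and siME2. Its AcH3 fold was 11.2 under siControl, and no AcH3 region was listed there in either knockdown, nor AcH2B in any library. HDAC3 was thus listed in all 3 libraries and AcH3 in siControl alone. A region near Trib1, for a pseudokinase, had the same arrangement, with HDAC3 folds of 4.53, 2.66 and 4.08 and an AcH3 fold of 8.95 in siControl alone. At Ofd1 and Trappc2, a divergent pair on X, the HDAC3 folds were 5.14, 9.69 and 5.83.

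Lamp1 had HDAC3 folds of 5.11, 8.35 and 5.03, in the same order. At the same place AcH3 had 15.3 and 11.9 and was not listed in siME2, and AcH2B had 3.96, 8.96 and 11.5. The control HDAC3 region, chr8:13158651-13159240, covers the E-boxes printed above. At Amdhd2 and Atp6v0c the 3 HDAC3 folds lay within 4.62 to 4.66, the closest of the 19 plotted regions. Socs2, for an inhibitor of cytokine signalling, had 5.12, 6.32 and 4.29. Bcl6, for a repressor that binds NCoR complexes, had 4.07, 4.55 and 4.40, with high acetylation in every library (AcH3 17.1, 14.1 and 6.24, AcH2B 13.4, 15.9 and 7.10).

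Dusp1, an early-response gene, had HDAC3 folds of 5.52, 3.72 and 4.47 at chr17:26508656-26509101, upstream of the start, with AcH3 and AcH2B between 4.24 and 6.12 in all 6 lists. Rara, for a retinoic acid receptor, had 5.28, 2.95 and 5.06 inside the gene. Vim, for the fibroblast filament vimentin, had 4.50, 3.01 and 3.90 upstream of its start. Cltc, for the clathrin heavy chain, had 4.70, 3.31 and 4.07 and an AcH3 fold of 20.1, 11.1 and 8.20. Among these regions the highest and lowest HDAC3 fold of a place could differ much, as at Ofd1 and Rara, or little, as at Amdhd2. Over the 80 regions in all 3 lists the median HDAC3 fold was 3.74, 3.37 and 3.63, and a region must pass the listing limit to enter that median.

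**Figure D4:**
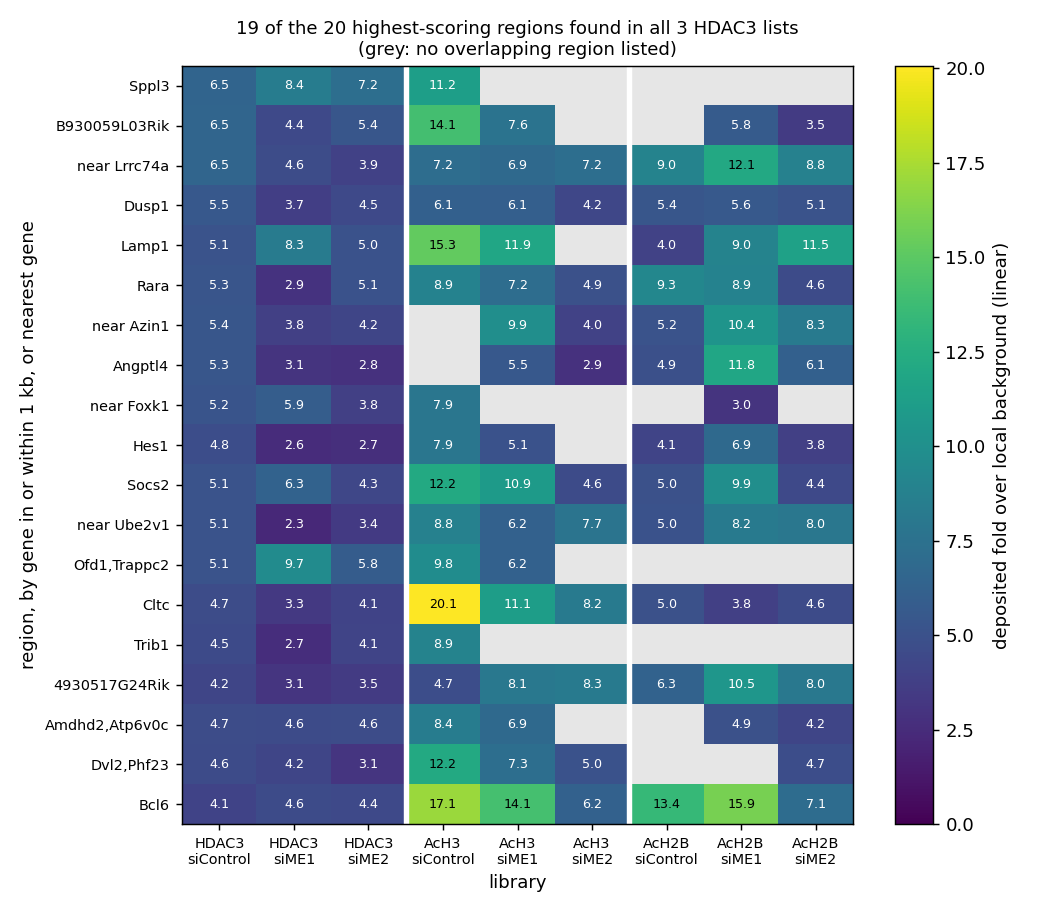
Deposited fold over local background (colour and number, linear scale) for 19 of the 20 highest-scoring HDAC3 regions on acetylated chromatin found in both HDAC3 knockdown lists (y axis, by gene) in the 9 libraries (x axis). Grey cells have no overlapping region listed. HDAC3 columns stay between 2.30 and 9.69, and 3 regions (Sppl3, near Foxk1 and Trib1) have AcH3 in siControl alone.

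Promoter windows at recurring regions held E-boxes at a higher share than other windows. The RefSeq table used holds windows from 250 bases before to 50 after a start, 32585 in all and none on chromosome 18, and 481 windows of 443 genes overlapped an HDAC3 region on acetylated chromatin. An E-box (CACGTG, its own reverse complement) was in 79 of these 481 (16.4%), in 10.3% (9.74 to 10.9%) of the 10208 windows that lay on AcH3 without such an HDAC3 region, and in 7.20% of all windows. Among the 27 windows whose HDAC3 region was found again in both knockdowns, 13 (48.1%, 30.7 to 66.0%) held an E-box and 10 held at least 2. Among the 367 windows whose regions were not found again, 49 did (13.4%, 10.2 to 17.2%). Windows with HDAC3 in a knockdown but not in siControl were at 17.4% for siME1 (38 of 218) and 13.6% for siME2 (21 of 154). Windows at regions with q of 0.05 or less in the control were at 34.4% (21 of 61). Recurring regions were also the stronger ones. The median control −log10 p was 4.79 for regions found again in both knockdowns and 3.73 for those found in neither. The part of HDAC3 strength in the E-box shares was not tested. Alternative starts of 1 gene share bases, so windows are not fully independent. An E-box was counted anywhere in a window and need not lie inside the HDAC3 region that overlaps the window.

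**Figure D5:**
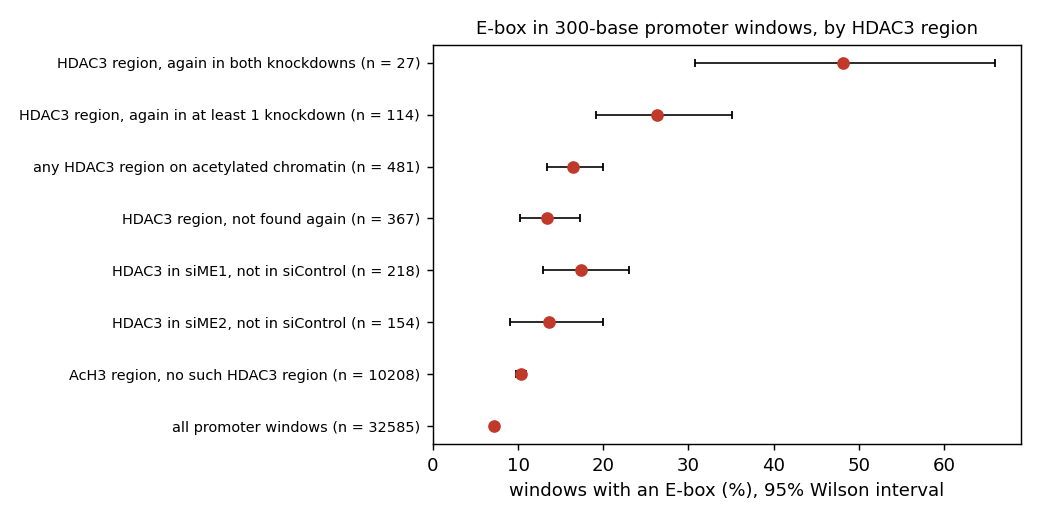
Share of 300-base promoter windows with an E-box (x axis, %, points with Wilson 95% intervals) by the HDAC3 or AcH3 region they overlap (y axis, with the number of windows). Windows whose siControl HDAC3 region was found again in both knockdowns stand at 48.1%. Windows on AcH3 without an HDAC3 region on acetylated chromatin stand at 10.3%.

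In 13 windows with an E-box the control HDAC3 region was found again in both knockdowns. They include those of Lamp1, Mcoln1, Clcn7, Amdhd2, Cd164, Mfsd1, Bcl6, Dusp1, Dvl2, Trpm7 and Ube2q1. Several encode proteins of the lysosome or of late endosomes: Lamp1, Mcoln1, Clcn7, Cd164 and Mfsd1. Another 8 motifs were searched on both strands in the same way, in windows with an HDAC3 region and in AcH3 windows without one. The GC box (GGGCGG) was in 74.2% and 68.9%, the CRE half-site (TGACG, which every CRE contains) in 37.4% and 34.5%, the CRE (TGACGTCA) in 3.12% and 3.59%, the ETS site (CCGGAAG) in 23.5% and 20.2%, AP-1 (TGANTCA) in 5.20% and 4.24%, the nuclear receptor half-site (AGGTCA) in 13.9% and 10.5%, and CCAAT in 29.5% and 37.3%. Over all windows these were in 35.9%, 20.9%, 1.80%, 8.92%, 7.85%, 16.2% and 37.6%. The C/EBP site (TTGCGCAA) was rare, in 0.208%, 0.313% and 0.184%. CCAAT was thus less frequent with HDAC3 than without, by a gap in percentage points wider than that of the E-box. In the 114 windows whose HDAC3 region was found again in at least 1 knockdown, the E-box was in 26.3%, CCAAT in 20.2% (13.8 to 28.5%), ETS in 13.2% (8.14 to 20.6%), the GC box in 72.8%, the CRE half-site in 31.6%, AP-1 in 7.02%, the receptor half-site in 13.2%, the CRE in 3.51% and C/EBP in 0.877%. A match is a string of letters and not a measured binding site.

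Lysosomal genes were then counted as a group, on a list of 58 chosen after these names were seen, of which 57 matched the annotation. An HDAC3 region on acetylated chromatin lay in or within 1 kb of 10 of the 57. Over all protein-coding genes it was 1318 of 21627 (6.09%), and over the 11807 genes with an acetylated region 11.2%; 55 of the 57 lysosomal genes were acetylated, of which the 10 are 18.2%. In 7 of the 10 genes a region was found again in a knockdown (Atp6v0c, Atp6v1a, Atp6v1c1, Clcn7, Hexa, Lamp1 and Mcoln1), and in 5 in both, where over all genes 273 and 60 of the 1318 were. The other 3 were Atp6v0b, Galns and Tfeb, the last encoding a transcription factor known for binding E-boxes of lysosomal genes. Clcn7 had HDAC3 folds of 4.50, 2.25 and 5.42 across siControl, siME1 and siME2, Mcoln1 had 3.76, 2.30 and 5.91, and Atp6v1c1, for another proton pump subunit, had 4.09, 2.78 and 3.27. At Hexa, for a lysosomal hexosaminidase, HDAC3 had 6.07 in siControl and 3.00 in siME2, with no siME1 region. Since the list was drawn up with its genes in view, its counts are a description.

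Immediate early and inflammatory genes had the highest share with HDAC3 among the 15 gene lists. Of these 20 genes, all acetylated, 11 (55%) had an HDAC3 region on acetylated chromatin, where 6.09% of all protein-coding genes and 11.2% of acetylated ones did. Constitutively used genes, all 25 acetylated, had 8 (32%), also above these shares. The 11 were Ccl2, Dusp1, Fosl2, Ier2, Ier3, Jun, Junb, Jund, Myc, Nfkbia and Nr4a1. Fosl2 and Junb, for AP-1 subunits, had 4 regions each and Myc 3. Their HDAC3 folds in siControl were modest, 2.95 to 3.41 over Fosl2 and 3.01 to 3.83 over Junb, and the strongest Myc region reached 5.08. Of the Junb regions 3 of 4 were found again in siME2 and 1 in siME1. The AcH3 region under Junb had a fold of 12.8 in siControl and 8.90 in siME1, and in siME2 3 of the 4 places had AcH3, at 3.70 to 4.29. At Nr4a1, an orphan nuclear receptor gene, HDAC3 had 3.91 in siControl and 3.39 in siME2.

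Clock and nuclear receptor genes followed, with 10 of 22 (20 acetylated, of which the 10 are 50%, against 11.2% of all acetylated genes). Per1, Per2 and Cry2 encode repressors of the circadian clock, Arntl (BMAL1) its activator, and Bhlhe40 and Bhlhe41 repressors that bind E-boxes. Bhlhe40 was the strongest, with an HDAC3 fold of 6.07 in siControl and 5.06 in siME2 and both marks in all 6 acetylated lists (5.20 to 8.86). Bhlhe41 had 2.80 in siControl and 4.68 in siME2. Per1 had 4 regions, the strongest at 4.67 in siControl and 3.91 in siME2. Rxra, the partner of many nuclear receptors, had a region inside the gene at 4.20, 3.79 and 3.13, in all 3 lists. The others were Nfil3, Nr3c1, Per2, Cry2, Arntl and Tef.

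Fibroblast genes carried HDAC3 on acetylated chromatin more often than fat cell genes. Of 24 preadipocyte and fibroblast genes 9 had a region, 42.9% of the 21 that were acetylated, against 11.2% over all acetylated genes: Ccn1, Col1a1, Col3a1, Col5a1, Lox, Pdgfra, Pdgfrb, Sox9 and Vim. Of 34 adipocyte genes 3 had one, 14.3% of the 21 acetylated. Pdgfra, for a growth factor receptor of adipocyte progenitors, had 4 regions with HDAC3 folds of 2.38 to 3.71 inside an AcH3 region of fold 13.3. Col1a1, for type I collagen, had 2, at 3.74 and 3.06. The 3 adipocyte genes were Cebpb, for an early factor of fat cell differentiation, Lpl, for lipoprotein lipase, and Zfp423, for a factor of preadipocyte commitment. Cebpb had HDAC3 folds of 2.80 and 3.65 in siControl and no region in either knockdown. At both places AcH3 had 15.7 in siControl and 7.34 in siME1, and AcH2B 6.75 and 8.95. In siME2 the second had AcH3 at 4.82 and AcH2B at 10.8, and the first had neither. Lpl had 3.04 and 3.68, the second found again in siME1 at 2.72.

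The defining fat cell genes were unevenly acetylated. Pparg, for the master factor of fat cell differentiation, had AcH3 and AcH2B regions in all 6 lists, and HDAC3 regions of fold 3.84 in siControl and 3.37 in siME1, but none of its control HDAC3 regions lay on acetylated chromatin. Cebpa and Lpl had AcH3 in all 3 treatments and AcH2B in the knockdowns only. No region of any antibody was listed at Adipoq or Plin1 in any of the 9 libraries, and Fabp4 had an AcH3 region in siME2 only. All 5 preadipocyte and fibroblast markers (Dlk1, Pdgfra, Thy1, Col1a1 and Vim) had both marks in each of the 6 acetylated lists. Differentiation of the cells was not analysed here otherwise, and its part in the gene lists was not tested. The libraries hold no RNA measurement that would check the knockdown of Me1 or Me2.

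Genes of the acetylation machinery were present too. Of 9 HDAC3 and NCoR complex genes Bcl6, Hdac3 and Nr1d1 had a region, 37.5% of the 8 acetylated, against 11.2% of all acetylated genes. The siControl folds were 2.55 for Nr1d1 and 3.74 for Hdac3 itself. Neither of these was found again in a knockdown. Of 25 acetyltransferase and deacetylase genes, all acetylated, 5 had one (Crebbp, Ep300, Hdac7, Kat5 and Sirt1). This is 20%, where the constitutively used genes stood at 32% and all acetylated genes at 11.2%. Ep300, for the acetyltransferase p300, had an HDAC3 fold of 4.39 at an AcH3 region of 25.2, the highest AcH3 fold among the named regions. Hdac7 had 5 regions, of which 1 was found again. Of 20 fatty acid and triglyceride synthesis genes 1 (Scd2, a desaturase) and of 20 NADPH-producing enzyme genes 1 (Pgls, of the pentose phosphate pathway) had a region. In each of these lists 19 genes were acetylated, so the share was 5.26%, against 11.2% over all acetylated genes. Me1 and Me2 had none.

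Of 17 insulin signalling genes, all acetylated, 4 had one (Akt1, Foxo3, Pik3r1 and Rheb), 23.5% against 11.2% of all acetylated genes. Pik3r1, for the regulatory subunit of PI3-kinase, had the highest fold of the AcH3-only class, 6.76 at chr13:101768341-101768656, and was not found again there. Of 22 cell cycle genes, all acetylated, 3 had one (13.6%), Ccnd3, Cdk4 and Cdkn1a. Cdk4, with 4 E-boxes before its start, had 6.54 and was not found again either, so E-boxes and recurrence did not always go together. None of the 20 neuronal, 20 hepatocyte, 20 muscle and 20 leukocyte genes had one, and 5, 1, 3 and 5 of them were acetylated.

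On AcH2B alone most of the strongest regions lay between genes or inside them, and most carried AcH3 in the knockdown lists. A region between genes at chr17:83983013-83983788, nearest to Haao, had an HDAC3 fold of 6.52 in siControl and 3.79 in siME1. AcH3 was not listed there in siControl but had folds of 14.3 in siME1 and 7.95 in siME2, and AcH2B went from 5.90 to 16.0 and 12.2. At Angptl4, for a secreted inhibitor of lipoprotein lipase, at chr17:33779263-33780215, HDAC3 had 5.35, 3.06 and 2.82. AcH3 was likewise listed only in siME1 (5.51) and siME2 (2.89), and AcH2B had 4.87, 11.8 and 6.13. Inside Igf2r, for a receptor that carries enzymes to lysosomes, the region at chr17:12725188-12725423 had HDAC3 at 4.72 in siControl only. Over the class, 70.6% of the 333 regions overlapped AcH3 in siME1 and 59.5% in siME2.

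The same was seen when acetylated regions were the unit, and it was more frequent where HDAC3 had been. Of AcH2B regions without AcH3 in siControl, 78.5% (73.2 to 82.9%) of the 274 with HDAC3 overlapped AcH3 in siME1 and 49.7% (48.8 to 50.5%) of the 12830 without, where the share of all was 50.3%. In siME2 it was 70.8% and 44.6%, with 45.1% of all. Of AcH3 regions without AcH2B in siControl, 66.4% (62.6 to 70.0%) of 610 with HDAC3 and 40.8% of 14859 without overlapped AcH2B in siME1, with 41.8% of all. In siME2 these were 46.7%, 30.1% and 30.8%. The acetylated regions with HDAC3 were stronger and wider to begin with. Within each of the 5 bins of siControl fold the share was higher with HDAC3 than without, for both marks and both siRNAs. In the lowest AcH3 bin, for instance, 56.7% of 30 regions with HDAC3 and 34.4% of 2861 without overlapped AcH2B in siME1. Within bins the regions with HDAC3 were still wider, by median 1500 against 1127 bp in the 4th AcH3 bin, and the part of strength and width was not tested.

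The marks under HDAC3 were also kept more often. Of AcH3 regions with HDAC3, 94.2% were found again in AcH3 siME1 and 77.4% in siME2, against 69.3% and 44.2% without HDAC3, where all AcH3 regions were at 71.1% and 46.5%. For AcH2B the shares were 97.2% and 87.7% with HDAC3 and 86.6% and 68.0% without, with 87.2% and 69.1% over all. In the highest AcH3 bin almost every region was found again in siME1 with or without HDAC3 (99.5% and 98.3%), while in siME2 87.0% and 63.7% were. The regions with HDAC3 were again the stronger and wider ones, by median 2240 against 1614 bp within that bin. An overlap of 1 bp counted as found again, and the part of strength and width was not tested. Counted over the HDAC3 regions themselves, 88.8% of the 1667 on AcH3 were found again in AcH3 siME1 and 63.9% in siME2, and 95.9% and 81.5% of the 1134 on AcH2B. Whichever mark they had in siControl, 85.8% of the 2000 overlapped AcH3 in siME1 and 63.2% in siME2, and 80.25% and 60.1% AcH2B. Over all HDAC3 control regions these were 41.2%, 30.2%, 42.9% and 30.5%, a gap that the rule itself favours. All 6 acetylated lists held 594 of the 2000 (29.7%). No region of any antibody was left in siME2 at 466 and in siME1 at 130. The siME2 list is shorter than the siME1 list for every antibody, for AcH2B 32461 against 54645 regions, so these counts are not compared. The same counts over all HDAC3 control regions were not made.

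Where HDAC3 was found again the marks were kept at a similar or slightly higher rate. In siME2, 145 of 202 AcH3-marked regions that kept HDAC3 kept AcH3 (71.8%), against 921 of 1465 that did not keep HDAC3 (62.9%). In siME1 the shares were 91.0% and 88.5%. Listed folds moved differently for the marks. Over 1032 regions with AcH3 in all 3 treatments the median AcH3 fold was 10.8, 8.03 and 5.64 under siControl, siME1 and siME2, and the whole AcH3 lists had medians of 5.70, 4.30 and 4.19. Over 903 regions with AcH2B in all 3 it was 5.40, 8.12 and 6.02, while the whole lists were at 4.16, 3.94 and 4.17. AcH2B under HDAC3 thus had its highest median in siME1, where the median of the whole list was lowest. These medians are of unlike sets. The 903 had to be listed in all 3 treatments, while the whole siME1 list holds 54645 AcH2B regions against 20043 in siControl. The same median for AcH2B regions without HDAC3 was not taken, so the contrast is not particular to HDAC3 on these values. Selection for the siControl list favours high siControl values, and folds of separate libraries were not scaled to each other.

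Some genes held several of the regions. Of the 1318 genes with a region, 1080 had 1, 155 had 2 and 83 had 3 or more. The genes with the most, chosen after their values were seen, were Tnrc18 with 9 regions, Rara and Smg6 with 8, and Gse1 and Vmp1 with 7. Short genes stood out by density: Hes1, for a repressor of the Notch pathway, had 5 regions in or within 1 kb of 2.44 kb of gene, and Zfp36l2, for an RNA-binding protein, had 5 at 4.02 kb. Of the Zfp36l2 regions 4 were found again in siME1 and 1 in siME2. The miRNA gene Mir21a lies at Vmp1 and had an HDAC3 region within 1 kb. Mir199a-2, another miRNA gene, had 4, with HDAC3 folds of 2.80 to 3.74, and Mir199b had 1. The mature products shown have their seed, bases 2 to 8, in capitals.
miR-199a-3p: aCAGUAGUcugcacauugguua
miR-199b-3p: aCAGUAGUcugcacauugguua
miR-21a-5p: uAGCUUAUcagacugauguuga
The first 2 share their seed.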

How the data were processed

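The deposited files are region tables, 1 for each of the 9 ChIP-seq libraries. The submitters' processing notes list MACS2 and BWA beside SAMtools, deepTools and bedtools, with neither versions nor settings. Each row gives, as deposited by the authors, the fragment pileup at a summit (signal, a coverage that is not scaled between libraries), −log10 p and −log10 q values, and the fold over local background (a ratio). Their columns have no header and were read by position. Library totals are not in the files used here, so depth is not known beyond the background, 1.14 fragments in HDAC3 siControl and 1.76 to 2.22 in the acetylated libraries. The lowest −log10 p of an HDAC3 list was 2.30.

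The notes name mm8, but on GRCm38 53.0% of AcH3 regions were at a gene end (within 1 kb), and 10.4% when shifted by 50 kb, so coordinates were read as GRCm38. Titles of the HDAC3 libraries mention H3, and the antibody label was followed. AcH3 and AcH2B are likewise named by the antibody name in the label. The catalogue numbers given beside these names were not checked against them, and every statement on mark class rests on the names. Rows of 1 region were merged and given the values of its highest −log10 p summit. Local background was taken as (pileup + 1)/fold − 1. Overlaps of 1 bp or more were counted in Python 3.11.15 (pandas 2.3.3, scipy 1.17.1) and checked against bedtools 2.31.1 on simulated regions. Genes are RefSeq protein-coding genes, and 79.9% of them have a promoter window. Regions named are the 10 with the highest −log10 p in each mark class and the 20 highest found in both knockdown lists (both outside high-background segments), those at genes of the 15 lists, and the 5 with the highest background, and others are said to be chosen after their values were seen. E-box counts and the lysosomal list were added after the data were seen. The regions and lists were chosen with earlier results of these data known. Intervals are Wilson 95% intervals, counting error only. Alternatives were 50% overlap, a distance of 1 kb, −log10 p of 3, −log10 q of 5, no high-background regions, a 10 kb gene window and equal list lengths. Some genes are not reported here.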

Additional observations from a re-analysis of the deposited data

Results flagged for a closer look

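Outside chromosomes 1 to 19 and X the HDAC3 siControl list held 59 regions, which no comparison above uses. Of these 58 were on unplaced sequences and 1 on the mitochondrial genome. The HDAC3 siME1 and siME2 lists held 24 and 15 such regions, and each acetylated list held 3 to 5. They were noticed as signal in data outside the main measurement, and no control sample gives a level for them.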

How the results depend on the processing

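No paired analysis was possible because each antibody has 1 library per siRNA, and for the same reason no replicate could be left out. Requiring 50% of the control region to be overlapped gave 39.2% of HDAC3 regions on acetylated chromatin, 49.6% of them on AcH3 only and 33.3% on both marks. Recurrence, now among the 1786 regions that met this rule and not the 2000, was 6.89% in HDAC3 siME1 and 6.49% in siME2. For the marks it was 84.0% and 54.1% for AcH3, and 94.4% and 77.4% for AcH2B. With control regions of −log10 p of 3 or more, 47.0% lay on acetylated chromatin. With a gene window of 10 kb, 69.75% lay near a gene end. With lists of equal length, recurrence was 6.65% in HDAC3 siME1, 85.5% and 60.6% for AcH3, and 89.0% and 76.2% for AcH2B. The drops in recurrence came with asking for more overlap or offering fewer regions. The number of regions stayed within 1.5 times of 2000 under each alternative run, and leaving out high-background regions moved none of 12 results. Regions on acetylated chromatin were found again 3.62 to 5.06 times as often as those off it in siME1 and 5.50 to 7.87 times in siME2 under the 5 settings compared, a comparison added after the data were seen.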
